A study of Mus musculus with 19 samples.

Results

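Regulatory T (Treg) cells of the thymus were chosen by their RNA, as cells with at least 1 unique molecular identifier (UMI) of Foxp3, at least 1 UMI of any of Il2ra, Ctla4, Tnfrsf4 or Tnfrsf18, and 0 UMIs of Cd8b1. A cell had to hold at most 15% mitochondrial UMIs and at least 200 genes. Of 85389 barcodes, 79569 passed these 2 limits (93.2%), and 392 of them were members (0.49%), from 14 of 17 mice. The 392 cells came from thymi measured by CITE-seq, which counts the RNA and, through antibodies carrying DNA barcodes, 111 surface proteins of the same single cell.

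The study compared wild-type mice with mice whose T cells are restricted to one lineage. There were 5 B6 (WT) mice, of which 3 (wild-type 1, 2 and 3) were sorted for CD5+TCRB+ cells and 2 (wild-type 4 and 5, 2 lanes each) were not sorted. The CD4-fated genotypes, with 2 mice each, were MHCI-/- mice (B2m-deficient, with a diverse receptor repertoire, sorted for CD5+TCRB+ cells), AND mice (a T cell receptor (TCR) transgene specific for MHC class II, per the study's methods on a Rag1-deficient background, so that no other receptor can be made) and OT-II mice (an MHC class II-specific TCR transgene). The CD8-fated genotypes, again 2 mice each, were MHCII-/- mice (H2-Ab1-deficient, diverse receptors, sorted in the same way), F5 mice (an MHC class I-specific TCR transgene, Rag1-deficient) and OT-I mice (an MHC class I-specific TCR transgene). AND, F5, OT-I and OT-II thymi were not sorted. Per the study's methods, AND came from the B10.Cg strain and F5 from C57BL/6 (B6), and both were crossed to Rag1-/- mice. Wild-type and OT-I mice were C57BL/6 as well. By strain name, OT-II mice were B6.Cg, MHCI-/- mice B6.129P2 and Rag1-/- mice B6.129S7. The background of the MHCII-/- mice was not given in the sources used here. All were females of 4 to 8 weeks. Wild-type 1, AND 1 and F5 1 were run in the experiment ZRS06, wild-type 2 and 3, both MHC-deficient genotypes, AND 2 and F5 2 in ZRS07, and wild-type 4 and 5 with all OT mice in ZRS08. The mouse was the replicate in every comparison.

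Treg cells restrain immune responses to the body's own tissues, and Foxp3 is the transcription factor that defines them. In the thymus they arise in the medulla from CD4+ T cells whose TCR binds self-peptide strongly. Signals from the TCR, CD28 and tumor necrosis factor (TNF) receptors such as GITR (Tnfrsf18), OX-40 (Tnfrsf4) and TNFR2 (Tnfrsf1b) raise CD25 (Il2ra), the alpha chain of the interleukin-2 (IL-2) receptor, and IL-2 then acts through the transcription factor STAT5. Mature Treg cells also return to the thymus from the periphery.

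STAT5 binds the DNA word TTCNNNGAA, which reads the same on both strands. The 300-base promoters of Cish, an IL-2-induced inhibitor of cytokine signaling that was among the genes raised in the members, and of Foxp3 are given from RefSeq on GRCm38.p6, each from 250 bases before to 50 bases after a gene start, with every TTCNNNGAA match in capitals. Both genes lie on the plus strand. The Cish window is chr9:107296409-107296708 and holds 2 matches. The Foxp3 window is chrX:7580233-7580532, from the second of 2 starts in the table, and holds 1 match, while the window of the first start holds 0.
Cish: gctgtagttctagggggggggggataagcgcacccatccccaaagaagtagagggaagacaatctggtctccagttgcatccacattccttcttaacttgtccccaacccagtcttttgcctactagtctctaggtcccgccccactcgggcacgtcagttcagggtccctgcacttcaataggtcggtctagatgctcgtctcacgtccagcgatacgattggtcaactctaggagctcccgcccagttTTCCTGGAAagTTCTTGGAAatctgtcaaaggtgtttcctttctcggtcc
Foxp3: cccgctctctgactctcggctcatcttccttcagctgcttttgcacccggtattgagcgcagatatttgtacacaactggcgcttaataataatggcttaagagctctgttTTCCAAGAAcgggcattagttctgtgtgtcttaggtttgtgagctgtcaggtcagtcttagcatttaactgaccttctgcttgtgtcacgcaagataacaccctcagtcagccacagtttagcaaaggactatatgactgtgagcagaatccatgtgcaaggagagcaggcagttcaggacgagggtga
Of 32851 mouse promoters of this length, 8.30% held TTCNNNGAA on either strand. Among genes tested in the comparison with conventional CD4 cells below, the word stood in 10.5% of promoters of genes higher in the members (48 of 457), in 4.93% of promoters of genes lower in them (32 of 649) and in 6.69% of promoters of all tested genes (517 of 7729). The forkhead word TGTTTAC, searched on both strands, was found in 4.16%, 2.16% and 2.57% of the same 3 sets and in 3.65% of all promoters. These are counts of letters within 1 window per start and were given no test.

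The lanes held 9893333 to 43303999 RNA UMIs and 4484116 to 34762051 antibody UMIs each, with median RNA depths of 1516.5 to 7062 UMIs per barcode. Members had a median of 4883 UMIs (1052 to 20128) and 1769.5 genes, against 4010 UMIs over the filtered cells, and their median mitochondrial share was 4.73% against 5.28%. Deeper cells have a better chance to show 1 UMI of each gene, so depth enters the choice. Of the members, 13 were called doublets (3.32%, against 4.00% of all filtered cells). There were 981 barcode sequences that occurred in more than 1 lane, 6 members carried one, and 0 were shared between 2 members. The targeted genes were read in every mouse. Over all its cells, B2m RNA was 48.3 and 48.7 CPM (the gene's UMIs per 1000000 UMIs of the sum) in the MHCI-/- mice and at least 407 CPM in every other mouse, and the antibody to I-A/I-E, the class II proteins, read at least 23.9 per 10000 antibody UMIs everywhere but in MHCII-/- thymi, which had 2.22 and 2.25. RNA of H2-Ab1, the gene targeted there, did not follow the label: it was at 9.10 and 9.08 CPM in MHCII-/- mice and at 3.65 to 24.2 CPM in the other sorted mice.

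The genes of the rule were read as a description and tested in none of the comparisons. Foxp3 was seen with exactly 1 UMI in 176 members, 2 in 91, 3 in 58 and at least 4 in 67, with a maximum of 11. Tnfrsf18 was detected in 336 members, Tnfrsf4 in 317, Ctla4, the inhibitory receptor that removes CD80 and CD86 from antigen-presenting cells, in 204 and Il2ra in 167. All 4 of these genes were seen together in 94 members, 3 in 122, 2 in 106 and 1 in 70. Cd4 RNA was detected in 181 members and Cd8a RNA in 63. In the summed members of wild-type mice 1, 2, 3, 4 and 5, Foxp3 was at 542, 357, 396, 457 and 728 CPM, and Il2ra at 256, 219, 194, 241 and 1712 CPM. Wild-type 5 stood far above the others for Il2ra, and its sum comes from 9 cells with a median of 2579 UMIs. The protein products were also higher in members than in conventional cells of wild-type mice. By mouse, CD25 did not follow Il2ra in members of wild-type 1 to 4, at 44.4, 62.8, 66.4 and 69.3 per 10000 antibody UMIs. The CD25 antibody read 73.8 ± 30.9 per 10000 antibody UMIs in members (SD, n = 5 wild-type mice) and 3.88 ± 1.34 in conventional CD4 cells of the same mice, the GITR antibody 352 ± 32.1 and 87.2 ± 22.9, and the OX-40 antibody 115 ± 62.2 and 57.7 ± 53.6. The OX-40 ranges of the classes overlapped, but members were higher than conventional cells in each of the 5 mice.

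Ikzf2 (Helios), an Ikaros-family factor that marks most thymic Treg cells, took no part in the choice and shows how the edges of the rule behave. It stood at 1237 CPM in the members and was detected in 83.9% of them. Members just inside the rule, with a single Foxp3 UMI, had 1221 CPM of Ikzf2 and those with at least 2 had 1250 CPM. Just outside it, 47 cells with Foxp3 but none of the 4 receptor genes and no Cd8b1 had 678 CPM, and 184 cells that met the rule except for carrying Cd8b1 had 915 CPM. Conventional CD4 single-positive (SP) cells, defined here as cells with Cd4 and Ccr7 and with 0 UMIs of Foxp3, Cd8a and Cd8b1 (5603 cells), had 108 CPM. A further 115 cells without Foxp3 and Cd8b1 but with Il2ra, Cd4 and any of Ctla4, Tnfrsf4 or Tnfrsf18 (the Foxp3-negative Il2ra+ cells) stood between at 524 CPM, summed over all genotypes. In wild-type mice alone they had 933 ± 485 CPM (SD, n = 5), against 1467 ± 709 in members and 119 ± 24.1 in conventional cells. There the ranges of these cells (258 to 1532 CPM) and of members (938 to 2654 CPM) overlapped. As a check on free RNA, Foxp3 was seen in 39 of 17293 double-positive cells (0.226%, median depth 2929 UMIs) and in 1 of 173 B cells (0.578%, median depth 4522 UMIs).

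Among the sorted mice, members were most frequent in wild-type and MHCI-/- thymi. They made up 0.943%, 1.52% and 1.94% of filtered cells in wild-type 1, 2 and 3 (29, 72 and 48 cells), 1.79% and 2.30% in the MHCI-/- mice (79 and 83 cells), and 0.172% and 0.115% in the MHCII-/- mice (6 cells in each). The Wilson 95% intervals over the cells of each mouse were 0.657% to 1.35%, 1.21% to 1.91% and 1.47% to 2.57% in wild-type 1 to 3 and 1.44% to 2.23% and 1.86% to 2.84% in the MHCI-/- mice. That of wild-type 1 lay below both MHCI-/- intervals and the others overlapped them, and the spread between mice is not part of them. Among the unsorted mice the shares were 0.319% and 0.0933% in wild-type 4 and 5 (40 and 9 cells), 0.187% and 0.0231% in AND (5 cells and 1 cell), 0.103% and 0.0629% in OT-II (6 and 2 cells) and 0.160% in OT-I 1 (6 cells). No member was found among 2646 and 4528 cells of the F5 mice, which allows shares of up to 0.113% and 0.0663%, or among 3453 cells of OT-I 2, which allows up to 0.0869%. These intervals and limits cover counting error only. Sorted thymi were enriched for CD5+TCRB+ cells, so the shares of sorted and unsorted mice are given side by side and were not compared.

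Set against the CD4 SP cells of the same mouse, the wild-type mice lay closer together. Members were 6.76%, 10.8%, 12.2%, 9.71% and 9.38% of the members plus conventional CD4 SP cells in wild-type 1 to 5, and 9.74% and 8.82% in the MHCI-/- mice, within the wild-type range. In the class II-specific TCR transgenic mice the share was 0.83% and 0.105% in AND and 2.26% and 2.13% in OT-II, below every wild-type mouse, a difference that was not tested. The Wilson intervals of the OT-II mice, 1.04% to 4.85% and 0.585% to 7.43%, overlapped that of wild-type 1 (4.75% to 9.54%). Conventional cells of the OT-II mice read 26.6 and 47.2 per 10000 for the CD25 antibody, against 2.10 to 5.75 in wild-type mice. In MHCII-/- mice, members were 15.4% and 9.09%, but of only 39 and 66 cells, and in OT-I 4.32% of 139 cells and 0 of 78, which allows up to 3.85%, and the F5 mice held 4 such cells and 1. The cells counted here in MHCII-/- mice carried CD8 protein. Their conventional cells read 203 and 161 per 10000 for the CD8a antibody and 379 and 289 for CD8b, and their members 167 and 232 for CD8a and 145 and 258 for CD8b. In wild-type mice CD8a was at 17.9 to 31.6 in conventional cells and at 14.7 to 46.8 in members, and CD8b at 27.7 to 54.0 and 19.2 to 56.9, so in MHCII-/- mice these classes lacked CD8 by the RNA rule but not by protein. The conventional cells of the OT-I mice also lay above the wild-type range, at 70.5 and 79.1 for CD8a and 69.5 and 107 for CD8b, while the members of OT-I 1 were at 36.3 and 41.1, within it.

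**Figure D1:**
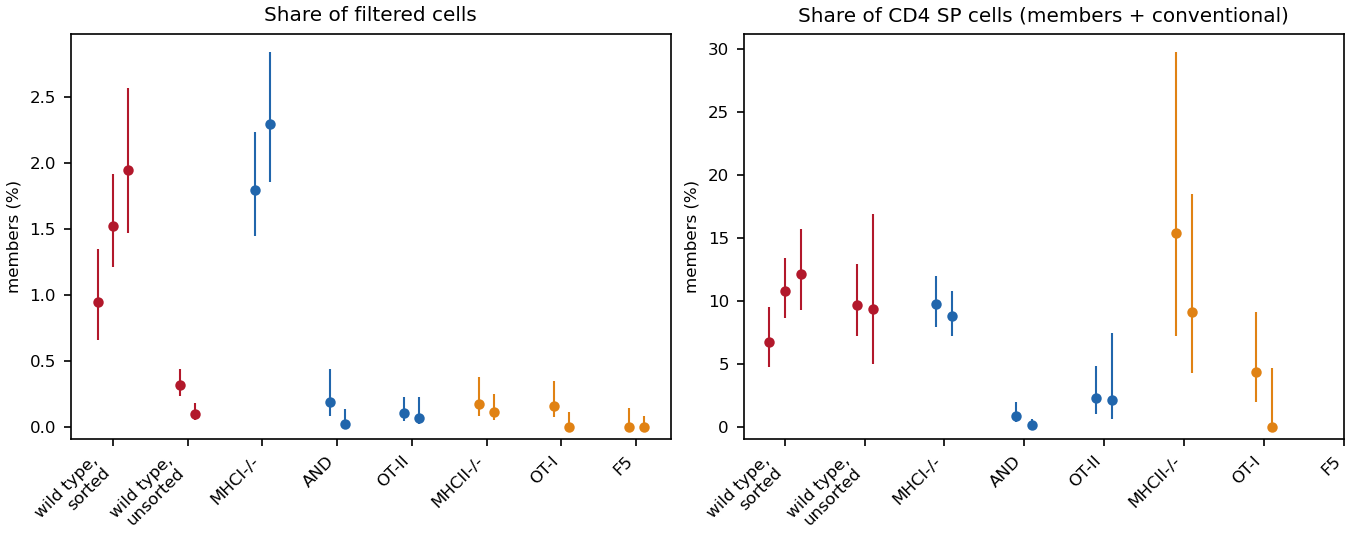
Members in each of the 17 mice, grouped by genotype, as a percent of filtered cells (left, linear axis) and of members plus conventional CD4 SP cells (right, without mice that had under 20 such cells), with 95% Wilson intervals as bars. The wild-type and MHCI-/- mice lie highest in percent of filtered cells among the sorted mice, and the AND and OT-II mice lie below every wild-type mouse in percent of CD4 SP cells.

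The design sets 6 CD4-fated mice against 6 CD8-fated mice. To reduce the effect of depth, each cell with at least 1500 UMIs was thinned to 1500 before the rule was applied, and shallower cells were left out. The share of filtered cells was then 0.325% ± 0.440 (SD, n = 6) in CD4-fated and 0.0839% ± 0.136 (n = 6) in CD8-fated mice, and the groups overlapped. The difference of 0.241 percentage points was not larger than the spread of mice over the genotypes of each lineage (two-sided exact permutation test, p = 0.262). Without MHCI-/- 1 it was 0.101. In each lineage the test pooled sorted MHC-deficient mice with unsorted TCR transgenic mice. Thinned shares were 1.02% and 0.734% in MHCI-/-, 0.0381% and 0% in AND, and 0.0702% and 0.0805% in OT-II. They were 0.350% and 0.0987% in MHCII-/-, 0.0544% and 0% in OT-I, and 0% in both F5 mice. The part of the sort in this spread was not tested. Without thinning the means of the CD4-fated and CD8-fated mice were 0.744% and 0.0744% (exact permutation, p = 0.156). With mice paired by family and replicate number as a block, the thinned share was higher in 5 of 6 CD4-fated mice (exact sign flips, p = 0.0625). As a share of CD4 SP cells, CD4-fated mice had 5.71% ± 5.6 and CD8-fated mice 12.2% ± 17.9 after thinning, a difference of -6.52 percentage points (exact permutation, p = 0.489, n = 6 per lineage), which was -0.0707 without MHCII-/- 1, where thinning raised the members from 6 to 12 since a cell can join by losing its Cd8b1 UMIs. After thinning, each F5 mouse had 1 CD4 SP cell, which was no member. The unthinned means were 3.98% and 4.80% (exact permutation, p = 0.794, n = 6 per lineage).

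The main comparison was of members with conventional CD4 SP cells of the same mouse, in the 4 wild-type mice (1 to 4) that had at least 20 cells of each class, with 29, 72, 48 and 40 members and 400, 595, 347 and 372 conventional cells. UMIs were summed per mouse and class and tested by edgeR's quasi-likelihood test with the mouse as a block and Benjamini-Hochberg adjustment over 7766 genes. At an adjusted p under 0.05, 470 genes were higher (6.05%) and 626 lower (8.06%) in members, and 1003 of the 1096 moved the same way in all 4 mice. The median log2 fold change of all genes was -0.10 with TMM scaling and -0.02 with DESeq2's size factors, under which 59.9% of calls were higher in place of 42.9%. Log2 fold changes are printed with a standard error derived from the test, as the absolute change divided by the square root of its F statistic. In the comparisons below within MHCI-/- mice and by CD24, with 2 mice each, this error rests largely on a spread pooled over genes. There it does not measure a gene's own spread between the mice. Levels are in CPM and are not scaled by gene length, so that they compare cells and not genes. The gene lists below were chosen with earlier results of these data known, so their counts of called genes describe the lists and do not test them. Each count stands beside the 6.05% higher and 8.06% lower among all tested genes.

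Within the list of 26 transcription factors, Ikzf2, Maf and Ikzf4 rose most in members, and Id2, Satb1 and Tcf7 fell most. Ikzf2 stood at 938, 1188, 982 and 1574 CPM in members of wild-type 1 to 4 and at 108, 133, 82.0 and 135 CPM in conventional cells. The groups did not overlap, and the log2 fold change was 3.30 ± 0.09 (adjusted p = 1.19e-26). Ikzf4 (Eos), a partner of Foxp3 in gene repression, was at 146, 146, 194 and 233 CPM against 25.8, 27.2, 23.7 and 40.7, a change of 2.55 ± 0.16. Maf, a factor of interleukin-10-producing T cells, rose by 3.15 ± 0.43, Ikzf3 by 1.05 ± 0.17 and Foxo1, which sustains Treg cell homing and function, by 0.69 ± 0.14. Id2, an inhibitor of E proteins, fell, with 40.8, 54.7, 29.5 and 8.31 CPM in members and 192, 175, 109 and 196 in conventional cells (-2.27 ± 0.22). The chromatin organizer Satb1 fell (-1.59 ± 0.08), as did Tcf7 (-1.34 ± 0.10) and Lef1 (-0.98 ± 0.09), the TCF-1 and LEF-1 factors of early T cell development. Of the 26 factors on the list, 24 were tested, 5 rose and 7 fell, with a median of -0.26. Zbtb7b (ThPOK), the CD4 lineage factor, was lower at -0.75 ± 0.21, a call that 5 of the alternative analyses lost, among them the one without wild-type 1. Gata3 (0.40 ± 0.15), Runx1 (-0.41 ± 0.20) and Bcl11b (-0.09 ± 0.08) did not pass the test.

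The largest rise of the named genes was in the IL-2 and STAT5 list. Socs2, a STAT5-induced suppressor of cytokine signaling, was at 81.6, 41.7, 59.0 and 45.7 CPM in members, while the conventional cells of the 4 mice together held 1 UMI. The ratio was 566, with a 95% counting interval of 97.5 to 22774. Cish was at 58.3, 96.4, 75.9 and 91.4 CPM against 6.63, 9.96, 12.1 and 6.47, a log2 fold change of 3.17 ± 0.28 (adjusted p = 2.28e-11). The groups did not overlap for either gene, and neither was part of the rule. Il2rb, the IL-2 receptor beta chain, rose by 3.08 ± 0.24, the kinase gene Pim1 by 2.43 ± 0.16, Stat5a by 1.33 ± 0.26 and Socs1 by 0.62 ± 0.14, the last a call lost without wild-type 3. Il7r, the receptor of the cytokine that keeps naive T cells alive, fell by 1.37 on the log2 scale (SE 0.16). Of 14 tested genes of the 15 on the list, 6 rose and 1 fell, with a median of 0.54. Stat5b (0.47 ± 0.18), Jak1 (-0.07 ± 0.10), Il2rg (-0.25 ± 0.11) and Bcl2 (0.14 ± 0.09) did not pass.

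Genes of the suppressor and coinhibitory list had the highest median, 1.77, with 12 of 13 tested genes higher and 0 lower (20 genes on the list). Over all tested genes, 6.05% were higher and 8.06% lower, and the list was chosen with earlier results of these data known. Lrrc32 (GARP), which tethers latent transforming growth factor (TGF)-beta to the Treg cell surface, was at 134, 52.1, 84.3 and 83.1 CPM against 0 to 2.52 CPM, and was detected in 22.8% of members and 0.467% of conventional cells. Its log2 fold change was 6.29 ± 0.42. Itgb8, the integrin chain that releases active TGF-beta from that complex, rose by 4.76 ± 0.63, from a low level of 13.0 to 33.7 CPM in members. Tgfb1 itself did not differ beyond its error (0.00 ± 0.11). Nrp1 (neuropilin-1), a surface marker of thymus-derived Treg cells, rose by 3.51 ± 0.29, and Nt5e (CD73), which makes adenosine, by 3.16 ± 0.43. Cd83 rose by 4.77 ± 0.46, Gpr83 by 2.11 ± 0.18, Capg by 1.77 ± 0.15, Swap70 by 1.65 ± 0.29, Cd200 by 1.63 ± 0.16, Izumo1r (folate receptor 4) by 1.05 ± 0.11 and Pdcd1 (PD-1) by 1.23 ± 0.32, the last a call lost without wild-type 2. Icos, a costimulatory receptor, passed at 0.55 ± 0.17, a call lost in 6 of the alternative analyses, among them those without wild-type 1 and without wild-type 4. Tigit had 0 UMIs in the 189 members.

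**Figure D2:**
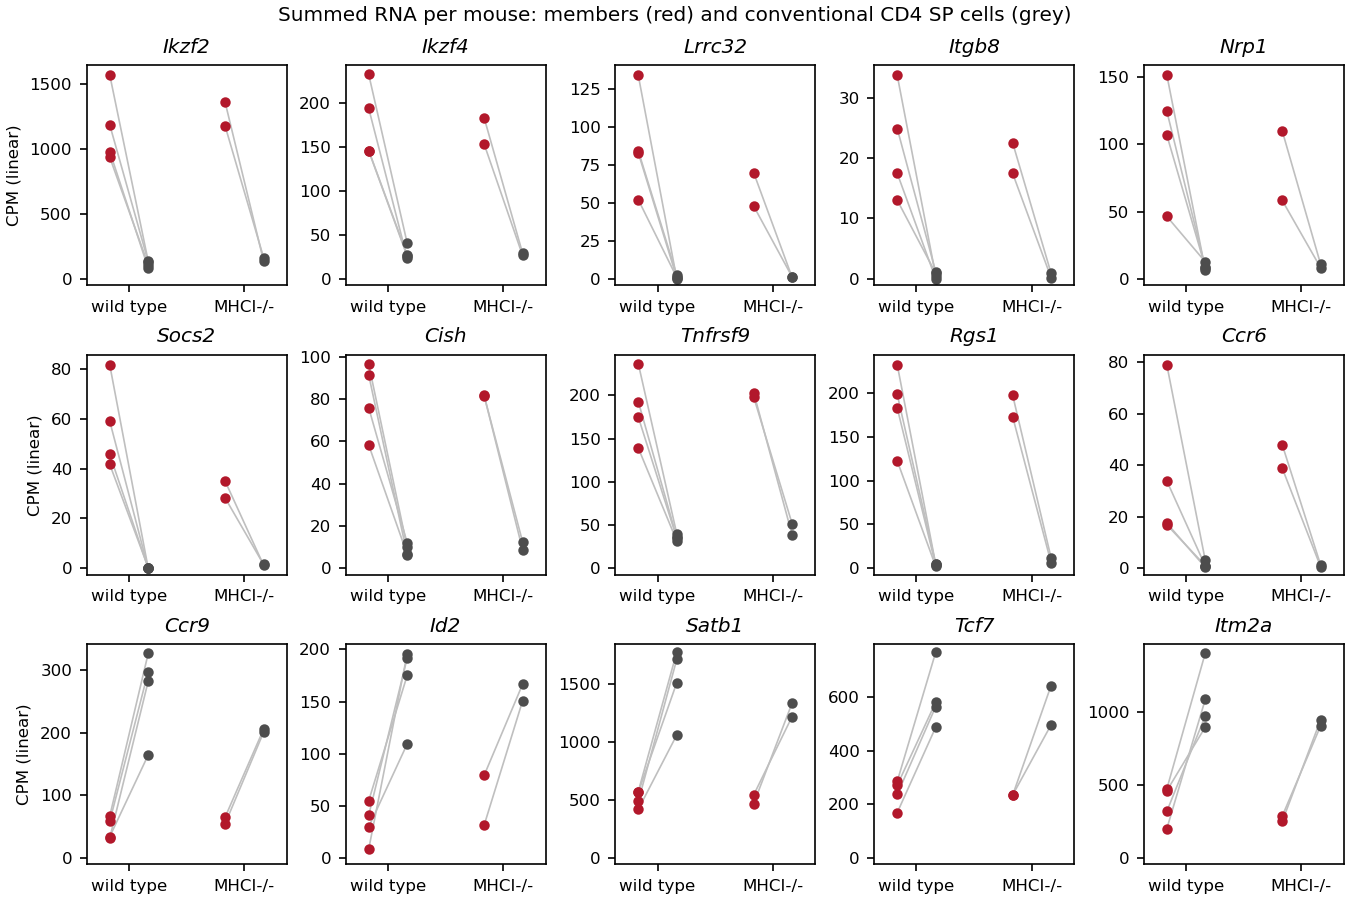
Summed RNA (CPM, linear axis from 0) of 15 genes outside the rule in members (red) and conventional CD4 SP cells (grey) of wild-type mice 1 to 4 and of the 2 MHCI-/- mice, with lines joining the 2 classes of 1 mouse. Members lie above conventional cells in every mouse for Ikzf2, Ikzf4, Lrrc32, Socs2 and Cish, and below them for Ccr9, Id2, Satb1 and Tcf7.

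Most TNF receptor and NF-kappaB genes outside the rule were higher in members. Of 15 genes tested, 10 rose and 1 fell, with a median of 0.84. Tnfrsf9 (4-1BB) stood at 175, 193, 139 and 237 CPM in members and at 35.0, 35.6, 31.7 and 40.0 in conventional cells (2.35 ± 0.15). Tnfrsf1b, the TNFR2 named above, rose by 2.13 ± 0.27 and its adaptor Traf1 by 1.92 ± 0.19. The NF-kappaB subunit Rel, needed for Foxp3 induction in the thymus, rose by 1.37 ± 0.16, and the inhibitor Nfkbia by 0.88 ± 0.10. Ltb rose by 0.87 ± 0.08. Birc3 (0.75 ± 0.22), Nfkb2 (0.84 ± 0.27), Nfkb1 (0.47 ± 0.13) and Cd27 (0.30 ± 0.09) passed with smaller margins and lost the call under at least 4 alternatives each, the analysis without wild-type 4 among them. Traf4 fell (-0.93 ± 0.26), a call lost without wild-type 1 and without wild-type 3. Relb (0.53 ± 0.22) and Rela (0.21 ± 0.25) did not pass.

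Genes of the TCR response moved in both directions. Of 13 tested genes of 16, 4 were higher and 2 lower, and the median of -0.08 was near that of all genes. Rgs1, which dampens chemokine receptor signals, was at 122, 232, 198 and 183 CPM against 2.21, 4.53, 5.03 and 3.43 (5.55 ± 0.23), far outside the conventional range. Ubash3b, a phosphatase that restrains TCR signaling, rose by 1.15 ± 0.24, and Dusp5 by 0.96 ± 0.24, a call lost without wild-type 4. Egr1, an immediate-early gene of TCR stimulation, fell (-1.27 ± 0.25). Nr4a1, another immediate-early gene (-0.53 ± 0.29), Cd5 (-0.08 ± 0.10) and Cd69 RNA (0.10 ± 0.18) did not pass.

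Homing genes moved in both directions. Ccr9, the receptor for the thymic and gut chemokine CCL25, was at 58.3, 31.3, 33.7 and 66.4 CPM in members against 297, 282, 164 and 326 (-2.61 ± 0.17), with no overlap. Ccr6, a receptor found on Treg cells that come back from the periphery, was at 17.5, 33.9, 16.9 and 78.9 CPM against 0.369 to 3.04 (4.71 ± 0.46), and was detected in 13.8% of members and 0.583% of conventional cells. S1pr1, the receptor for thymic exit, rose by 0.79 ± 0.11, and its regulator Klf2 by 0.48 ± 0.08. Itgae (CD103) rose by 4.28 ± 0.51, Cd44 by 1.33 ± 0.31 and Cxcr4 by 1.35 ± 0.39. The call of Cd44 was lost without wild-type 2 and that of Cxcr4 without wild-type 4. Gpr183 fell (-1.21 ± 0.25). In all, 9 of 12 tested genes of 15 on the list were higher and 2 lower.

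Genes of activated or recirculating T cells split. Ahnak rose by 2.66 ± 0.34 and S100a4 by 3.96 ± 0.35, while Vim fell (-0.50 ± 0.08), and 5 of 14 tested genes of 16 were higher and 2 lower. S100a4 came from few cells: it was detected in 2 of 29, 2 of 72, 3 of 48 and 2 of 40 members of wild-type 1 to 4, so that single cells set its level in each mouse. S100a6 rose by 2.19 ± 0.41, a call lost without wild-type 2. Markers of recently formed cells were lower, with 0 of 6 tested genes of 11 higher and 4 lower (median -0.72): Itm2a, raised at positive selection, fell by 1.64 on the log2 scale (SE 0.11), and Themis, Cd28 and Sox4 fell by 0.97, 0.68 and 0.59. Of 9 Bcl2-family genes tested of 12, 3 rose and 0 fell. Mcl1, a survival factor, rose by 0.56 ± 0.09, and Bcl2a1b and Bcl2a1d, near-identical copies between which reads cannot be assigned with certainty, by 1.24 ± 0.22 and 1.02 ± 0.31. Bcl2a1d turned to -0.43 with members of at least 2 Foxp3 UMIs, and its call was lost without wild-type 1 (0.55).

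In the list of helper CD4 genes, Cd40lg fell most. Cd40lg, the CD40 ligand through which helper T cells activate B cells, was at 23.3, 7.82, 16.9 and 0 CPM in members and at 84.4, 89.6, 82.5 and 41.5 in conventional cells, and was detected in 5.82% of members and 28.2% of conventional cells. The log2 fold change was -2.86 ± 0.32 (adjusted p = 1.25e-08). Of the 8 genes of the list, 1 rose (Tnfsf8, 1.17 ± 0.29, a call lost without wild-type 2) and 3 fell. Cell cycle genes were lower in 4 of 8 and higher in 0, led by Tyms (-1.78 ± 0.37). Their levels in members rested on single cells: Mki67 was at 0, 7.82, 29.5 and 137 CPM in wild-type 1 to 4, with 32 of 33 UMIs of wild-type 4 in 1 cell. Of the 5 stress genes tested of 8, Jun rose (2.86 ± 0.38) and Dnajb1 fell (-0.64 ± 0.22), the latter a call that most alternatives lost, those without wild-type 1, 2 or 3 among them.

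**Figure D3:**
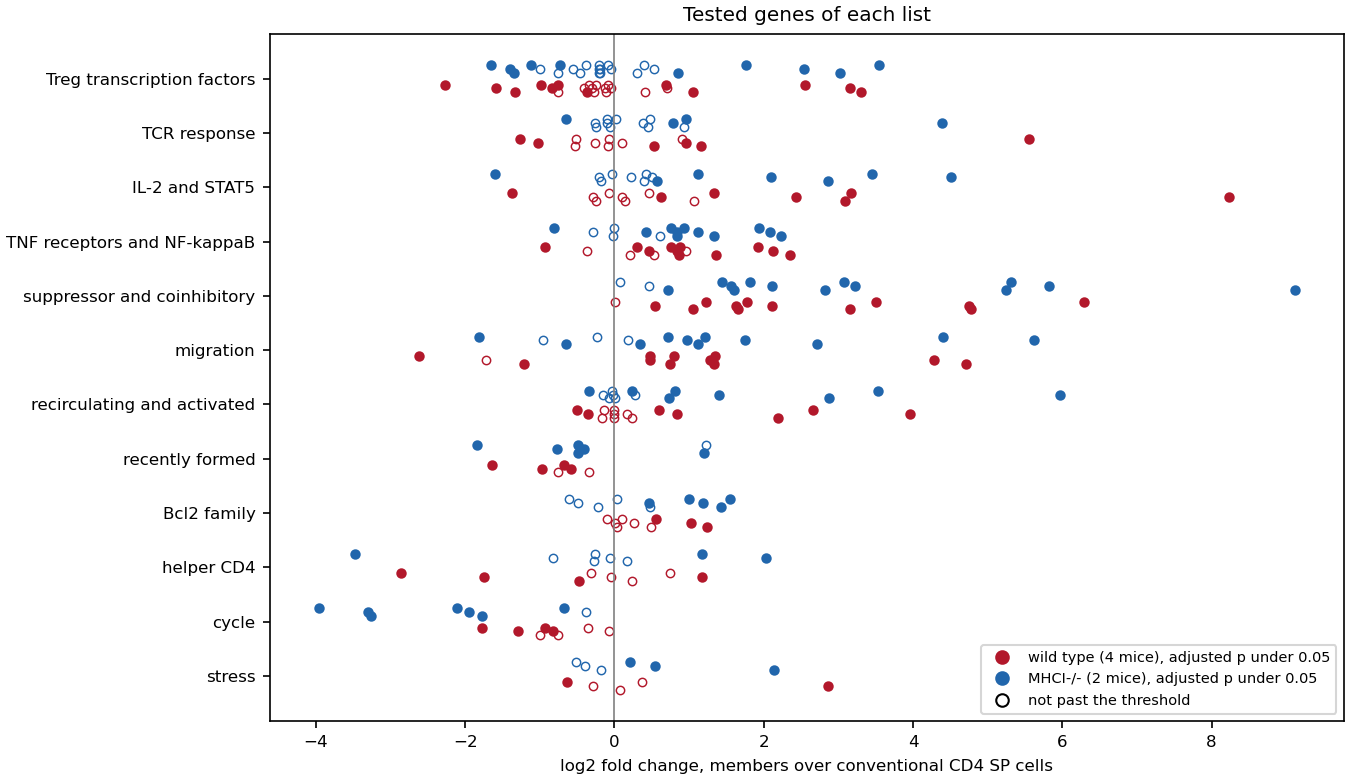
Log2 fold change of members over conventional CD4 SP cells for each tested gene of each list (1 point per gene), in 4 wild-type mice (red) and 2 MHCI-/- mice (blue). Filled points passed an adjusted p of 0.05 and open points did not, and most suppressor and coinhibitory genes lie to the right of 0.

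The 12 largest rises and falls among called genes with at least 20 CPM in one class and the same sign in every mouse were also read, leaving out receptor segments, ribosomal, mitochondrial and unnamed genes. Besides genes already given, the rises were Coro2a (5.67 ± 0.48), a coronin of the actin skeleton, Hopx (5.45 ± 0.21), which sustains induced Treg cells, Rln3 (4.40 ± 0.37) and H2-Q6 (4.37 ± 0.39). Hopx was at 163, 292, 232 and 199 CPM in members and at 1.84 to 7.05 in conventional cells, and was seen in 42.3% and 1.75% of cells. H2-Q6 belongs to a family of near-identical class I genes and its counts are uncertain. On the other side, Pdlim4 and Akr1c18 had 0 UMIs in the members, at least 6.86-fold and 7.70-fold lower than in conventional cells when 3 counts over the group are taken as the floor. Chl1 (3 UMIs in members), Spsb1, Hs3st3b1 and Uhrf1 also had 3 UMIs each, with ratios of 10.3 (counting interval 3.48 to 50.0), 8.16 (2.76 to 39.8), 7.35 (2.48 to 35.9) and 6.47 (2.18 to 31.7) in favor of conventional cells. Drosha, the nuclease of the microRNA pathway, fell (-2.65 ± 0.27), from 85.4 to 119 CPM in conventional cells to 8.31 to 21.1 CPM in members. Acvrl1 (-2.80 ± 0.37), Nrgn (-2.78 ± 0.43) and Kif23 (-2.53 ± 0.41) fell too.

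Markers of other cell types were read beside these results. Of the B cell markers, Ms4a1, Ebf1 and Iglc1 were at 0 in the 189 members, and the list summed to 0 to 16.6 CPM per mouse against 3.52 to 32.7 in conventional cells. In MHCI-/- mice the B cell list was higher in members, at 19.4 to 25.4 CPM against 3.18 to 4.57. Of 6 myeloid and dendritic markers only Cst3 was detected, with Lyz2, Itgax, Xcr1, Siglech and Csf1r at 0 (59.0 to 116 CPM against 69.5 to 102). In MHCI-/- mice, Lyz2, a macrophage gene, was at 53.6 CPM in members of mouse 1, and in members of mouse 2 Tcrg-C1 was at 56.3 CPM (conventional 2.65), Plac8 at 93.3, also above its conventional cells, and Dntt at 73.8 (18.0). Zbtb16, Klrb1c and Tbx21 of the NKT list were at 0, and its sum of 87.2 to 110 CPM against 12.9 to 33.1 includes Il2rb. The double-positive list summed to 11.7 to 62.3 CPM against 30.7 to 67.7 in wild-type mice, and to 22.6 to 113 CPM against 30.9 to 46.0 in MHCI-/- mice. The CD8 SP list was at 58.3 to 203 CPM against 47.2 to 58.4, with Cd8a, which the definition of conventional cells removed, at 23.3 to 54.0 CPM in members. Nkg7, a cytotoxic granule gene of that list, was at 5.83, 99.0, 67.4 and 41.5 CPM in members of wild-type 1 to 4 against 0.737 to 4.95, and at 87.4 and 115 CPM in members of the MHCI-/- mice, above the conventional cells of both. Runx3, the CD8 lineage factor of that list, was at 5.83, 33.9, 8.43 and 49.8 CPM in members of wild-type 1 to 4. Conventional cells of these mice had 41.5 to 47.3 CPM, so Runx3 was lower in members of each but wild-type 4. Members of the MHCI-/- mice had less Runx3 too, at 25.4 and 27.2 CPM against 43.2 and 44.6. The gamma-delta list summed to 8.31 to 23.3 CPM against 12.6 to 40.7 in wild-type mice, and to 5.64 to 89.4 CPM against 31.3 to 37.5 in MHCI-/- mice. The part of these genes in the results was not tested.

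The comparison was repeated in other animals. In the 2 MHCI-/- mice, with 162 members, 8937 genes were tested, 517 were higher (5.78%) and 552 lower (6.18%). With called doublets left out, 291 were higher and 242 lower, and with DESeq2, 244 and 88. These mice share no sample with the wild-type comparison. Of the 470 genes called higher in wild-type mice, 468 were tested and 456 had the same sign (97.4%), and 289 were called in both, 61.5% of the wild-type and 55.9% of the MHCI-/- calls. Of the 626 called lower, 606 of 624 tested had the same sign (97.1%), and 299 were called in both, 47.8% and 54.2% of the calls. No gene was called in opposite directions, and over all 7758 genes tested in both the signs matched in 69.6%.

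Leading genes of the wild-type comparison changed in the MHCI-/- mice too. Ikzf2 was at 1362 and 1179 CPM in members and at 138 and 163 in conventional cells (3.02 ± 0.08), Ikzf4 changed by 2.55 ± 0.18, and Lrrc32 was at 48.0 and 69.9 CPM against 1.22 and 0.884 (5.82 ± 0.46). Cish (2.86 ± 0.29), Il2rb (3.45 ± 0.26), Nrp1 (3.07 ± 0.30), Tnfrsf9 (2.09 ± 0.15) and Rgs1 (4.39 ± 0.22) rose. Socs2 was at 28.2 and 35.0 CPM against 1.52 and 1.24, a change of 4.50 ± 0.51. Of the lists, 13 of 15 tested suppressor and coinhibitory genes were higher and 0 lower, of 15 TNF receptor and NF-kappaB genes 10 and 1, of 14 homing genes 9 and 2, and of 14 IL-2 and STAT5 genes 6 and 1. Of 25 transcription factors 5 were higher and 5 lower, of 14 TCR response genes 3 and 1, of 14 genes of activated or recirculating cells 7 and 1, of 10 Bcl2-family genes 5 and 0, of 8 helper CD4 genes 2 and 1, of 6 stress genes 3 and 0, and of 7 markers of recently formed cells 1 and 5. Among genes too low to be tested in wild-type mice, Lag3 (3.22 ± 0.76), Irf4 (1.76 ± 0.47) and Cxcr3 (2.71 ± 0.57) were higher, the first 2 at low levels and not called by DESeq2. By the fitted log2 fold change, the largest rise was Gzmb (granzyme B), with 25 UMIs in members, all in 3 of 162 cells, and 0 in conventional cells, at least 85.7-fold. Il1r2 (ratio 309, interval 51.3 to 12589) followed by the fitted change, and these counts do not settle the order of the 2 genes. Penk (5.34 ± 0.29) was at 319 and 58.3 CPM against 4.26 and 3.18, so its error is narrower than the spread of the 2 mice. It was seen in 9 of 162 members. Cell cycle genes were lower in 7 of 8, led by Mki67 (-3.96 ± 0.42). Of these, Cdk1 turned to 0.93 at matched depth and to 0.16 with at most 1 UMI per cell, and Top2a to 0.0064 with at most 1 UMI. The genes Tpx2, Prc1, Kif11, Casc5 and Hmmr had 0 UMIs in members.

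Whether the difference between members and conventional cells itself differed between MHCI-/- and wild-type mice was tested as an interaction over both sets. Of 7908 genes, 11 were called (0.139%), 10 with a lower log2 fold change in MHCI-/- than in wild-type mice (Cenpf, Nusap1, Ube2c, Mki67, Hmgb2, Ccnb2, Top2a, Hist1h1b, H2afz and Zbp1) and 1 with a higher one (Ly6d). Mki67 and Top2a are on the cell cycle list of 8 genes. In wild-type mice Hmgb2 and Top2a were called lower and H2afz higher (0.80, and 0.25 in MHCI-/- mice, a smaller rise), and Mki67 was at -0.35 and Ccnb2 at 0.48, neither past the test. In wild-type 4, 1 member held 32 of 33 UMIs of Mki67, and 46 of 51 UMIs of Top2a were in 1 cell. The count was 0 when each cell was counted with at most 1 UMI per gene, 0 without MHCI-/- 2, 2 without wild-type 4 and 3 without MHCI-/- 1.

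Compared with each other, members of the 2 MHCI-/- mice and of the 3 sorted wild-type mice differed in few called genes. Of 4814 genes, 4 passed (0.0831%), 2 higher (0.0415%) and 2 lower (0.0415%) in MHCI-/- mice. With 2 and 3 mice, a gene that missed the threshold was not shown to be alike in both. B2m was at 87.4 and 73.8 CPM in MHCI-/- members and at 1655, 1582 and 1960.0 in wild-type members (-4.37 ± 0.19), as the knockout sets it, and was the one gene called in every alternative. Ccl5, a chemokine of activated T cells, was at 178 and 101 CPM against 5.83, 18.2 and 37.9 (2.69 ± 0.39, adjusted p = 0.0016). The Ccl5 call was lost without wild-type 2 and with members of at least 2 Foxp3 UMIs (2.26, adjusted p = 0.883), and with at most 1 UMI per cell and gene 0 genes were called higher. Ly6d passed at an adjusted p of 0.0498, with 46 of 47 UMIs of MHCI-/- 2 in 1 cell. Eif3j1 was lower (-2.09 ± 0.37, adjusted p = 0.0196), but a near-identical copy, Eif3j2, shares its reads. The Eif3j1 call was lost with DESeq2, with members of at least 2 Foxp3 UMIs and without wild-type 1, 2 or 3. None of the 12 lists held a called gene in this comparison, where 187 genes (3.88%) had an unadjusted p under 0.05.

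The few members of the TCR transgenic and MHCII-/- mice allow values only. Ikzf2, summed over the members of a genotype, stood at 1431 CPM in MHCII-/-, 1673 in OT-I and 1582 in OT-II mice, within or near the 1072 of sorted and 1669 of unsorted wild-type mice. In the 6 members of the AND mice it stood at 135 CPM (5 UMIs), and Ikzf4 was at 0. In the 5 cells of AND 1, Il2ra and Tnfrsf4 were at 0 as well. With 1 to 6 cells a mouse no test was made.

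Antibodies measured the surface of the same cells. For 5 wild-type mice, antibody UMIs were summed over the members and the conventional CD4 SP cells that passed the protein filters, and 104 antibodies were tested by edgeR's quasi-likelihood test with the mouse as a block, leaving out those to products of the choosing genes. Of these, 18 were higher (17.3%) and 23 lower (22.1%) in members, and 28 of the 41 moved the same way in all 5 mice. Without wild-type 1, 14 were higher and 10 lower, without wild-type 3, 13 and 11, and without the mouse as a block, 5 and 3. The median log2 fold change of all antibodies was -0.14 with TMM and 0.07 with library size alone, under which 75.0% of calls were higher in place of 43.9%, so changes within about that distance of 0 take their direction from the scaling.

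CD304 (neuropilin-1) had the largest rise, at 46.0, 37.8, 58.1, 37.2 and 50.6 per 10000 antibody UMIs in members of wild-type 1 to 5 and at 2.05, 2.09, 4.48, 6.39 and 7.02 in conventional cells. The groups were far apart (3.34 ± 0.34, adjusted p = 0.000189), as for Nrp1 RNA. Other cells than the members carried CD304 too. Summed over all mice it was at 47.5 per 10000 in members and 32.5 in double-positive cells. Cells that met the rule except for carrying Cd8b1 had 51.3. CD38, an enzyme that breaks down NAD, was at 42.2, 43.2, 48.2, 42.6 and 70.9 against 7.40, 6.68, 9.0, 9.33 and 12.2 (2.25 ± 0.12). Integrin beta 7 (1.43 ± 0.11), CD73 (1.43 ± 0.16), the product of Nt5e, and CD55 (1.34 ± 0.11) completed the higher antibodies called in every alternative analysis. CD200 (1.43 ± 0.09), CD54 (ICAM-1, 1.14 ± 0.13) and CD122 (the product of Il2rb, 0.71 ± 0.14) were higher too and lost the call only without the mouse as a block. Cd200 and Il2rb RNA were also higher.

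Members carried less of several T cell surface proteins. CD90.2 (Thy-1) was at 57.4, 75.7, 55.4, 329.5 and 301 per 10000 in members and at 162, 187, 142, 702 and 654.5 in conventional cells, lower in each mouse (-1.49 ± 0.07). CD69, a marker of recent TCR signaling and of retention in the thymus, was at 36.0, 38.9, 38.9, 29.6 and 21.2 against 74.5, 81.8, 76.7, 64.8 and 73.9 (-1.41 ± 0.14), with no overlap, whereas its RNA did not pass. The TCR beta chain (-1.0 ± 0.11), CD127 (the product of Il7r, -1.05 ± 0.11), CD28 (-0.79 ± 0.09) and CD24, which falls as thymocytes mature (-0.86 ± 0.11), were lower. ICOS was lower on the surface (-0.53 ± 0.13) although its RNA was called higher. The antibody call was lost without the block, with library-size scaling, without wild-type 1 and without the protein filters, where its value was 0.22.

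**Figure D4:**
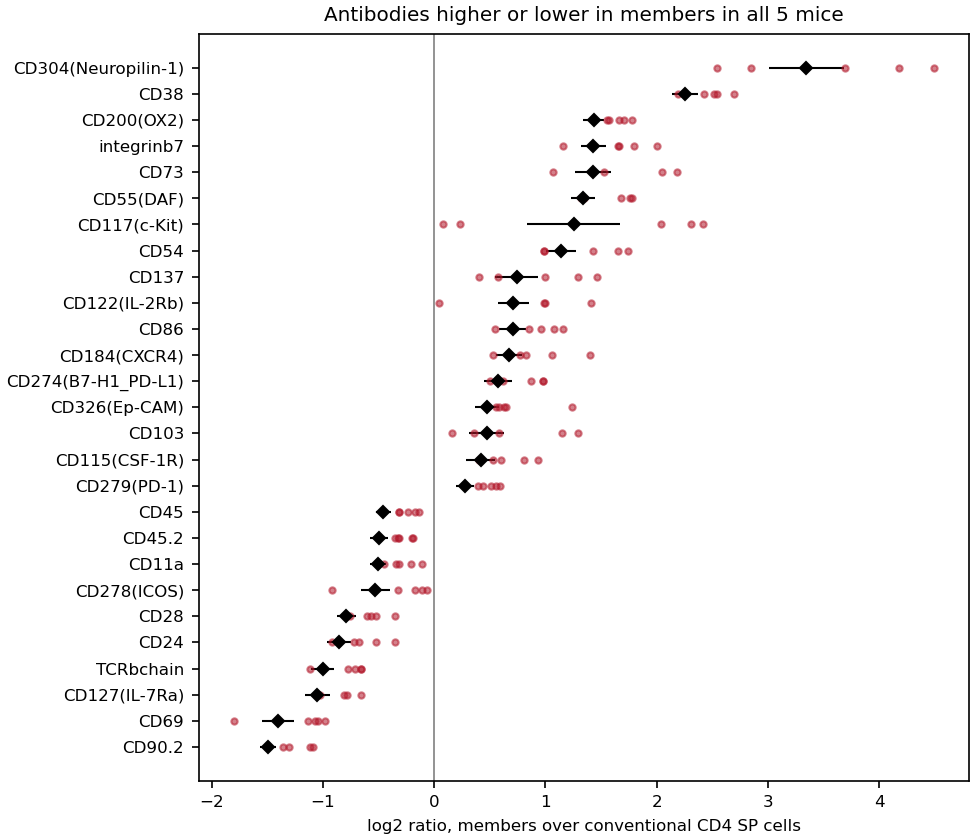
Log2 ratio of members over conventional CD4 SP cells for 27 of the 28 antibodies called with the same sign in all 5 wild-type mice. Red points are the mice, as ratios of levels per 10000 without TMM and so shifted to the right, diamonds the fitted log2 fold change and bars its standard error, and CD304 and CD38 lie farthest to the right, CD90.2 and CD69 farthest to the left.

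Against the Foxp3-negative Il2ra+ cells of the same 5 mice, 4 of 104 antibodies differed (3.85%), 1 higher (0.962%) and 3 lower (2.88%). Integrin beta 7 was at 75.0, 107, 123, 70.9 and 85.7 per 10000 in members and at 6.80, 50.8, 45.6, 14.0 and 17.8 in Foxp3-negative Il2ra+ cells (2.14 ± 0.35). CD69 (-1.77 ± 0.26), CD24 (-1.45 ± 0.30) and CD90.2 (-1.14 ± 0.19) were lower in members, with CD24 at 47.8, 35.8, 34.4, 90.9 and 52.2 against 104, 59.5, 76.3, 312 and 366. All 4 antibodies lay on the same side in every mouse. CD304 and CD38 were not called here. They were at 27.1 ± 31.7 and 35.2 ± 20.9 per 10000 in Foxp3-negative Il2ra+ cells (SD, n = 5). Members had 45.9 ± 8.83 and 49.4 ± 12.2. The Foxp3-negative Il2ra+ cells were mixed, with 12 of the 115 called doublets, and whether they precede Foxp3 expression was not tested. Their CD25 antibody ran from 16.5 to 949.6 per 10000 over the mice, and their GITR antibody was at 176, 159, 442, 131 and 46.8 in wild-type 1 to 5, above conventional cells in the first 4 and below them in wild-type 5 (61.5). They were 5 to 11 per wild-type mouse, and the count fell to 0 without wild-type 1, to 0 without wild-type 4 and to 2 without wild-type 3. RNA could not be tested because fewer than 20 Foxp3-negative Il2ra+ cells were found in each wild-type mouse. By ranges over the 5 mice, some genes raised in members overlapped. Cish was at 14.8 to 144 CPM in Foxp3-negative Il2ra+ cells and 58.3 to 128 in members. Tnfrsf9 was at 44.3 to 580 and 128 to 237, and Lrrc32 at 0 to 272 and 52.1 to 134. Others lay below members: Rgs1 (0 to 34.0 and 122 to 232), Il2rb (0 to 54.0 and 85.6 to 105) and Socs2 (0 to 34.0 and 41.7 to 128).

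The members that passed the protein filters were then divided within each lane at the median share of CD24 among antibody UMIs. The sides are less mature CD24-high and more mature CD24-low cells, and CD24 was not part of the rule. Wild-type 2 and 3 had at least 20 cells on each side. Of 2101 genes, 10 were higher in CD24-low members (0.476%) and 3 lower (0.143%). S100a4 was at 82.8 and 268 CPM in CD24-low members, with 47 UMIs in all, and at 0 in CD24-high members, at least 14.3-fold. S100a6 had 48 UMIs against 1 (ratio 43.7, counting interval 7.47 to 1760). Sox4, a factor of immature T cells, was at 58.4 and 35.7 CPM in CD24-low and at 357 and 178 in CD24-high members (-2.49 ± 0.39), and Cd200 was lower (-1.66 ± 0.35) in CD24-low members. Igfbp4 (3.20 ± 0.45), Ly6a (3.06 ± 0.71), Thy1 (2.15 ± 0.56), Capg (1.35 ± 0.34), Hopx (1.29 ± 0.31) and Pim1 (1.26 ± 0.34) were higher. In wild-type 2 the 17 UMIs of S100a4 came from 2 cells, and in wild-type 3 the 30 UMIs from 2 cells, and S100a6 was likewise in 2 CD24-low cells of each mouse, so the bound and the interval cover UMI counting and not the spread of cells. All calls of this comparison were lost with DESeq2, which called 0 genes (17 at an unadjusted p under 0.05), and with at most 1 UMI per cell and gene 0 of 1635 genes were called (30 at an unadjusted p under 0.05).

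In the other mice with at least 14 cells on each side, S100a4, Sox4 and Igfbp4 of these genes were read as values, with the chemokine receptors Ccr9 and Ccr6, which were not called. S100a4 was above 0 in CD24-low members and at 0 in CD24-high members of wild-type 1 (365 and 0 CPM), MHCI-/- 1 (101 and 0) and wild-type 4 (9.25 and 0), and at 181 and 4.43 CPM in MHCI-/- 2, from 1 cell each in wild-type 1 and 4, 4 in MHCI-/- 1 and 7 in MHCI-/- 2. In mice with 2 or 3 cells on a side, S100a4 was lower in CD24-low members of AND 1 (0 and 858 CPM), MHCII-/- 2 (0 and 1227) and OT-II 1 (269 and 533) and higher in those of MHCII-/- 1 (277 and 0) and OT-I 1 (968 and 0), and in wild-type 5, with 5 and 3 cells, it was at 0 on both sides. Sox4 was lower in CD24-low members of MHCI-/- 1 (22.5 and 205 CPM), MHCI-/- 2 (104 and 332) and wild-type 4 (139 and 185), but not of wild-type 1 (137 and 125). Igfbp4 was lower in CD24-low members of both MHCI-/- mice (28.2 and 68.4 CPM, 73.2 and 119.7 CPM), opposite to the tested mice, at 45.6 and 37.6 CPM in wild-type 1, from 4 and 3 UMIs, and at 55.5 and 0 CPM in wild-type 4, from 1 cell. Ccr9 was lower in CD24-low than CD24-high members of wild-type 1 (11.4 and 113 CPM), wild-type 2 (14.6 and 51.1), wild-type 4 (18.5 and 120), MHCI-/- 1 (16.9 and 130) and MHCI-/- 2 (11.6 and 111), but higher in those of wild-type 3 (44.7 and 8.91). Ccr6 was higher in CD24-low members of all 6 mice with at least 14 cells on each side, from 22.8 and 0 CPM in wild-type 1 to 120 and 0 in wild-type 4. These Ccr6 levels rest on few UMIs. In mice with fewer cells, Ccr6 was higher in CD24-low members of MHCII-/- 1, OT-I 1, OT-II 1 and wild-type 5. It was lower in those of MHCII-/- 2 (43.8 and 87.7 CPM) and at 0 on both sides in AND 1. S100a4 was found in 7 of 79 and 8 of 83 members of the MHCI-/- mice.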

How the data were processed

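Thymocytes of 17 mice in 19 lanes were measured by CITE-seq. Per the study's methods and the submitters' processing notes, the authors aligned reads to mm10 and counted UMIs with Cell Ranger 3.1.0; the deposited matrices hold raw UMI counts of genes and antibodies per barcode. The members and the gene lists were chosen with earlier results of these data known. Filters were at most 15% mitochondrial UMIs and at least 200 genes, and for antibodies 1000 to 10000 antibody UMIs and at least 70 antibodies detected, of 111 used. No cell was removed as a doublet, since calls at 0.8% per 1000 barcodes served as an alternative. Counts were summed per mouse and class (at least 20 cells for RNA, 5 for antibodies) and tested with edgeR 4.0.16 (R 4.3.3), TMM scaling, quasi-likelihood and Benjamini-Hochberg adjustment at 0.05. DESeq2 1.42.0 was the alternative. Classes of 1 mouse were paired by the animal, and their deviations correlated at r of 0.102 to 0.315 for RNA and 0.588 to 0.942 for antibodies, each mouse best with itself. Named genes were the 12 largest called changes in each direction with at least 20 CPM and the same sign in every pair (no overlap between groups where unpaired), without rule genes, receptor segments, ribosomal, mitochondrial and unnamed genes, all called antibodies, and the lists. Antibody levels are per 10000 antibody UMIs. Intervals are Wilson or exact at 95%. Upper limits for mice without members are 3 counts over the number of cells. The fits were tested on simulated data with known changes. The antibody fit called 5 of 91 unchanged antibodies (5.49%), beside 10 of 10 changed by 1 log2 unit and 10 of 10 changed by 2. False calls were thus a larger share of these antibody calls than the adjusted threshold of 0.05 aims at. All features of a simulated comparison were given 1 dispersion, so genes whose UMIs sit in single cells were not imitated. The RNA fits called 0.0577% to 0.408% of unchanged genes and 39.0% to 58.9% of those changed by 1 log2 unit. Shares were compared by exact permutation with scipy 1.17.1, after thinning to 1500 UMIs. Some genes and antibodies are not reported here, but counts over lists include them.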

Additional observations from a re-analysis of the deposited data

Results flagged for a closer look

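In 22 of 292 groups of 4 to 10 mice (7.53%), 1 mouse stood apart from the others by Dixon's test, where chance gives about 1 in 20. Among CD8-fated mice, the highest thinned share of members was 0.350% (MHCII-/- 1). In the members of wild-type mice, the outlying values were the highest for Chl1 (7.82 CPM), Ikzf3 (139.9 CPM), Nfkb1 (241 CPM) and Itgb7 (392 CPM) and the lowest for Ptpn22 (71.7 CPM) and Cd27 (362.5 CPM). In conventional cells they were the highest for Socs2 (0.302 CPM), Rln3 (9.06 CPM), Pdlim4 (35.2 CPM) and Maf (9.56 CPM) and the lowest for Cd40lg (41.5 CPM), Itga4 (49.4 CPM) and Bcl2a1d (12.5 CPM). Among antibodies, per 10000, the highest values stood apart in members for CD279 (PD-1, 50.5), CD28 (16.5), CD301b (8.97), CD326 (Ep-CAM, 13.0) and CD38 (70.9), and in conventional cells for CXCR4 (20.9), CD279 (PD-1, 38.4) and CD28 (27.9).

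The log2 fold change of members over conventional cells was lower in MHCI-/- than in wild-type mice, by the test of the interaction, for Cenpf (-3.37), Nusap1 (-4.85), Ube2c (-5.08), Zbp1 (-0.84), H2afz (-0.53), Mki67 (-3.60), Hmgb2 (-0.88), Ccnb2 (-4.25), Top2a (-2.32) and Hist1h1b (-4.95), the last a histone gene with near-identical copies, and higher for Ly6d (3.45). The single cells that hold most UMIs of Mki67, Top2a and Ly6d are given above, and their part in these differences was not tested beyond the count with at most 1 UMI per cell, which was 0.

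Besides the antibodies used here, the lanes held UMIs of other antibody features, up to 231224 UMIs over 3 features in a lane of ZRS06 and up to 5075 UMIs over 99 features in a lane of ZRS08.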

How the results depend on the processing

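Of 2899 alternative values of 263 named genes and antibodies, 2360 kept direction and call, 528 lost the call and 11 lay in the opposite direction. Of 97 RNA results in wild-type mice, 95 kept their direction and 52 their call in every alternative run, of 105 in MHCI-/- mice 101 and 46, of 41 antibodies 40 and 8, and of 12 in the CD24 comparison 12 and 0. The causes were not tested, except that fewer cells, mice or UMIs enter some alternatives by their construction.

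Without the mouse as a replicate block, genes called fell from 1096 to 601 in wild-type mice, from 1069 to 628 in MHCI-/- mice and from 13 to 5 between CD24-low and CD24-high members, and antibodies from 41 to 8 and, against Foxp3-negative Il2ra+ cells, from 4 to 1. DESeq2 called 656, 332 and 0 genes, 2 in place of 4 between MHCI-/- and wild-type members, and 14 antibodies against Foxp3-negative Il2ra+ cells, where 38 adjusted p were NA. Members with at least 2 Foxp3 UMIs gave 654 and 614 genes, and 1 between genotypes. Leaving out doublets gave 533 genes in MHCI-/- mice. No filter on low counts gave 8 genes for CD24 and 17 between genotypes, all mice with enough cells 32 for CD24, and the replicate number as a block 5 between genotypes. No protein filters gave 27 antibodies, and 2 against Foxp3-negative Il2ra+ cells.

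Added after seeing the data, wild-type and MHCI-/- mice together gave 1779 genes, and at most 1 UMI per cell and gene gave 446, 352, 0 for CD24 (30 at an unadjusted p under 0.05), 1 between genotypes and 0 for the interaction (210 unadjusted). With at most 1 UMI, 55 of 87 wild-type and 53 of 97 MHCI-/- named genes with a value stayed called.

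Leaving out 1 mouse gave 687 (without wild-type 2) to 964 genes in wild-type mice, 24 (without wild-type 1 or 3) to 32 antibodies, 0 (without wild-type 1 or 4, with 15 and 14 unadjusted) to 4 against Foxp3-negative Il2ra+ cells, 1 (without wild-type 2) to 10 (without MHCI-/- 1) between genotypes, 2 without wild-type 1 or 3, and 0 (without MHCI-/- 2, 319 unadjusted) to 18 (without wild-type 3) for the interaction, 17 without wild-type 1. The thinned difference in share ran from 0.101 (without MHCI-/- 1) to 0.306 percentage points, and that of CD4 SP cells from -8.96 to -0.0707 (without MHCII-/- 1). For CD4 SP cells, exact sign flips by replicate block gave p = 0.375, with 2 of 6 pairs higher and AND 2 and F5 2 tied at 0%.

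Calls higher were 59.9% of the wild-type calls with DESeq2 size factors and 69.7% with DESeq2, in place of 42.9%, and 58.7% and 73.5% in place of 48.4% in MHCI-/- mice. Opposite values in MHCI-/- mice were Cdk1 0.93 at matched depth and 0.16 with at most 1 UMI, Dntt -1.66 without doublets, -0.99 with 2 Foxp3 UMIs, -1.69 at matched depth and -0.97 with at most 1 UMI, and Top2a 0.0064 and Vim 0.063 with at most 1 UMI. In wild-type mice they were Bcl2a1d -0.43 with 2 Foxp3 UMIs and Lgals1 0.011 with at most 1 UMI, and the CD278 (ICOS) antibody 0.22 without protein filters.

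With 2 mice, leaving 1 out of the MHCI-/- or CD24 comparison gave no value. RNA against Foxp3-negative Il2ra+ cells, and RNA in TCR transgenic and CD8-fated mice, could not be fitted, since too few mice had 20 cells of both classes.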
